A study of Mus musculus with 9 samples.

Results

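Signals of 10 mouse cytochrome P450 genes that metabolise carcinogens, drugs or endogenous lipids (Cyp2e1, Cyp1a1, Cyp1b1, Cyp2b9, Cyp2b10, Cyp2c55, Cyp2s1, Cyp3a11, Cyp3a13 and Cyp3a25) were compared between the colonic mucosa of mice on a high calcium diet and of mice on a diet with less calcium. The genes were chosen by name, and 12 of the 41174 probes of the array matched them by transcript accession. They are 10 of the 17305 genes that could be named on the array. A further 66 genes whose symbol is Cyp followed by a number, a letter and a number had a probe. Total RNA was taken from colonic mucosa, labelled as normal tissue, of ICR mice, an outbred stock. All 3 groups had been given the carcinogen 1,2-dimethylhydrazine (DMH) subcutaneously at 20 mg/kg once a week for 20 weeks, so none of the arrays shows a colon without carcinogen. The group hCA-Notumor ate a diet with 3% calcium and had no tumors, the group hCA-Tumor ate the same diet and had tumors, and the group DMH ate a diet with 1.24% calcium. For the DMH group the tumor field of the labels reads control, which leaves unsaid whether those mice had tumors. Each group had 3 one-colour arrays. The labels do not say whether these came from separate mice, so the p-values measure only the spread between arrays, which may be technical. Having 3 arrays a group sets how precise each value is.

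On each array 61.1 to 73.7% of the probes were well above background and 0 spots were saturated. Slide 1 held the 3 hCA-Notumor arrays and DMH array 1, slide 2 held hCA-Tumor arrays 1 and 2 and DMH arrays 2 and 3, and slide 3 held hCA-Tumor array 3. Across genes, which are not independent replicates, arrays of 1 group correlated at 0.994 to 0.997 within a slide (5 pairs) and at 0.967 to 0.984 between slides (4 pairs). Arrays of different groups correlated at 0.979 to 0.983 within a slide (7 pairs). The tissue label was checked against 7 markers of all epithelium, which were all measured. In hCA-Notumor, hCA-Tumor and DMH their summed signal was 932 to 997, 864 to 914 and 777 to 887 times the array's 75th percentile. Single markers went both ways on the log2 scale. Cdx2 differed from DMH by -0.75 in hCA-Notumor and by -1.57 in hCA-Tumor. Krt19 and Krt8 differed by 0.39 and 0.29 in hCA-Notumor, and Cdh1 by 0.66 in hCA-Tumor. The summed signal of 7 smooth muscle markers was 415 to 515, 588 to 767 and 221 to 380 in the same order of groups, and that of 7 fibroblast markers 88.1 to 94.9, 152 to 163 and 106 to 115. Their part in the results was not tested. The slide was also fitted as a block. In that fit the hCA-Notumor difference from DMH is the one within slide 1 and the hCA-Tumor difference from DMH is the one within slide 2. The former thus rests on DMH array 1 as the only DMH array. The array on slide 3 adds nothing to either difference. hCA-Notumor and hCA-Tumor shared no slide. Their difference without the block is therefore mixed with the slide, and with the block they are compared only through the DMH arrays.

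Cytochrome P450s are membrane-bound haem enzymes that insert an oxygen atom into small lipophilic molecules, with electrons supplied by the reductase Por. They are best known from liver, but the epithelium of the gut holds its own set. DMH is itself harmless to DNA until it is oxidised through azoxymethane to methylazoxymethanol, steps in which Cyp2e1 takes part, and the product breaks down to an agent that methylates DNA. Families 1, 2 and 3 are controlled by receptors that sense foreign compounds. The Ah receptor raises Cyp1a1 and Cyp1b1, the constitutive androstane receptor Nr1i3 raises Cyp2b10, and the pregnane X receptor Nr1i2 raises Cyp3a11.

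The promoters of 6 of the genes are given because they moved together across the arrays (Cyp2b9 with Cyp2b10, and Cyp3a11 with Cyp3a25 and Cyp2c55) or because the gene is a textbook target of the Ah receptor (Cyp1b1). Each is the 250 bases before the start in RefSeq, build GRCm38.p6, read on the strand of the gene. All 10 genes had an entry, and for Cyp3a25, which had 2 starts, the one listed first was used. Capitals mark AGGTCA, the half-site of many nuclear receptors, or GCGTG, the core bound by the Ah receptor, searched on both strands, so that a match on the other strand reads TGACCT or CACGC.
Cyp2b9: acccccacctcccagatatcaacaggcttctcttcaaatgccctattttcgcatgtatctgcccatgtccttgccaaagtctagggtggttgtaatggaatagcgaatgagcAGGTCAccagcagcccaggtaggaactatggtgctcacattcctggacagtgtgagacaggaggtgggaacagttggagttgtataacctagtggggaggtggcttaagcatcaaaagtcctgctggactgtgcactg
Cyp2b10: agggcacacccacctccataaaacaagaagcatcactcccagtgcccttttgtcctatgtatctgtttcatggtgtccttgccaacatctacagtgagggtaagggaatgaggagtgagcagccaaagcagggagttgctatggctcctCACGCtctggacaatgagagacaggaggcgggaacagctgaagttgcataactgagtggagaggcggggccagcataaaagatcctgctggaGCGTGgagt
Cyp3a11: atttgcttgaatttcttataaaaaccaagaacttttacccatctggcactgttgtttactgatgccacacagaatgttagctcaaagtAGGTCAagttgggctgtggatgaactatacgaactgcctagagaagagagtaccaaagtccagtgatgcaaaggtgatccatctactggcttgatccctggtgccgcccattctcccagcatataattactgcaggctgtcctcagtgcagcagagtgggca
Cyp3a25: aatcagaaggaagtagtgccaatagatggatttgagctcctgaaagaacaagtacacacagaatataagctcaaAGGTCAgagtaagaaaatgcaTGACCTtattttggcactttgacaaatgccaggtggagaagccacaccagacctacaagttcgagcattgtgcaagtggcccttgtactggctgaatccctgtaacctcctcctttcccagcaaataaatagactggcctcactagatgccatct
Cyp2c55: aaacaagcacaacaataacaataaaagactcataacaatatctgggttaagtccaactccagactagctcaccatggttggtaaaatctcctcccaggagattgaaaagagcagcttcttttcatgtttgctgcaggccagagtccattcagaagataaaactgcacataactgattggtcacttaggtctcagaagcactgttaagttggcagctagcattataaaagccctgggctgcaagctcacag
Cyp1b1: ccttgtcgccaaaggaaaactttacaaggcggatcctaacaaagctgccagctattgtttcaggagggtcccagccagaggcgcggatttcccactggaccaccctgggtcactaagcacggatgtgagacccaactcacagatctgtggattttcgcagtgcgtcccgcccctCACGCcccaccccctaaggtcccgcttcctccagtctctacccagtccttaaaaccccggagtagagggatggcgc
These lie at chr7:26173159-26173408 on the + strand (Cyp2b9), chr7:25897408-25897657 on the + strand (Cyp2b10), chr5:145879855-145880104 on the - strand (Cyp3a11), chr5:146009619-146009868 on the - strand (Cyp3a25), chr19:39006769-39007018 on the + strand (Cyp2c55) and chr17:79715062-79715311 on the - strand (Cyp1b1). Cyp2b9 held 1 AGGTCA, Cyp3a11 held 1 and Cyp3a25 held 2, whereas Cyp2b10 held 2 GCGTG and Cyp1b1 held 1. These letters did not occur in the Cyp2c55 window, and Cyp1a1 held 1 GCGTG. Thus 3 of the 10 genes held AGGTCA, against 14.02% of 32851 promoters of the same length, and 3 of 10 held GCGTG, against 28.16%. The windows of Cyp2b9 and Cyp2b10 were identical at 71.0% of aligned positions, those of Cyp3a11 and Cyp3a13 at 57.3% and those of Cyp3a11 and Cyp3a25 at 55.9%, with a median of 49.8% over all 45 pairs of the 10. A match describes the letters and is not evidence of binding.

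Signals are given as scaled log2 signal, the log2 processed signal of the probe minus the 75th percentile of its array, so that 0 is a bright gene on that array. Levels of different genes are not set against each other, since each probe has its own brightness. Of the 10 genes, 9 passed the filter on dim probes and were tested with limma across all 21084 features, with Benjamini-Hochberg adjusted p under 0.05 as the call. Against DMH, 5 of 9 were called in hCA-Notumor (1 higher, 4 lower), where 35.7% of all features were called, 18.4% higher and 17.3% lower. In hCA-Tumor 7 of 9 were called against DMH (2 higher, 5 lower), where 37% of all features were called, 21% higher and 15.9% lower. Between hCA-Notumor and hCA-Tumor 3 of 9 were called (1 higher and 2 lower in hCA-Notumor), where 47.6% of all features were called, 20.6% higher and 27% lower. The median difference over the 9 genes was -2.32, -2.33 and 0.19 in these comparisons, against 0.07, 0.08 and 0.00 over all features. Cyp2e1, Cyp1b1 and Cyp3a25 passed the filter through the DMH arrays alone, so the filter itself favoured a value below DMH for them. Cyp2b9 and Cyp2b10 passed through the hCA-Tumor and DMH arrays and not those of hCA-Notumor. For them the filter favoured a low hCA-Notumor value against both other groups. The counts of lower genes and the medians in these comparisons include such genes and are a description. Both comparisons with DMH share the DMH arrays. With the slide as a block 5 members were called in hCA-Notumor against DMH (1 higher, 4 lower), where 26.7% of all features were called, 14.1% higher and 12.6% lower. In hCA-Tumor against DMH it was 5 (1 higher, 4 lower), where 42.5% of all features were called, 23.9% higher and 18.6% lower. Between hCA-Notumor and hCA-Tumor it was 2 (both lower), where 30% of all features were called, 14.4% higher and 15.6% lower.

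**Figure D1:**
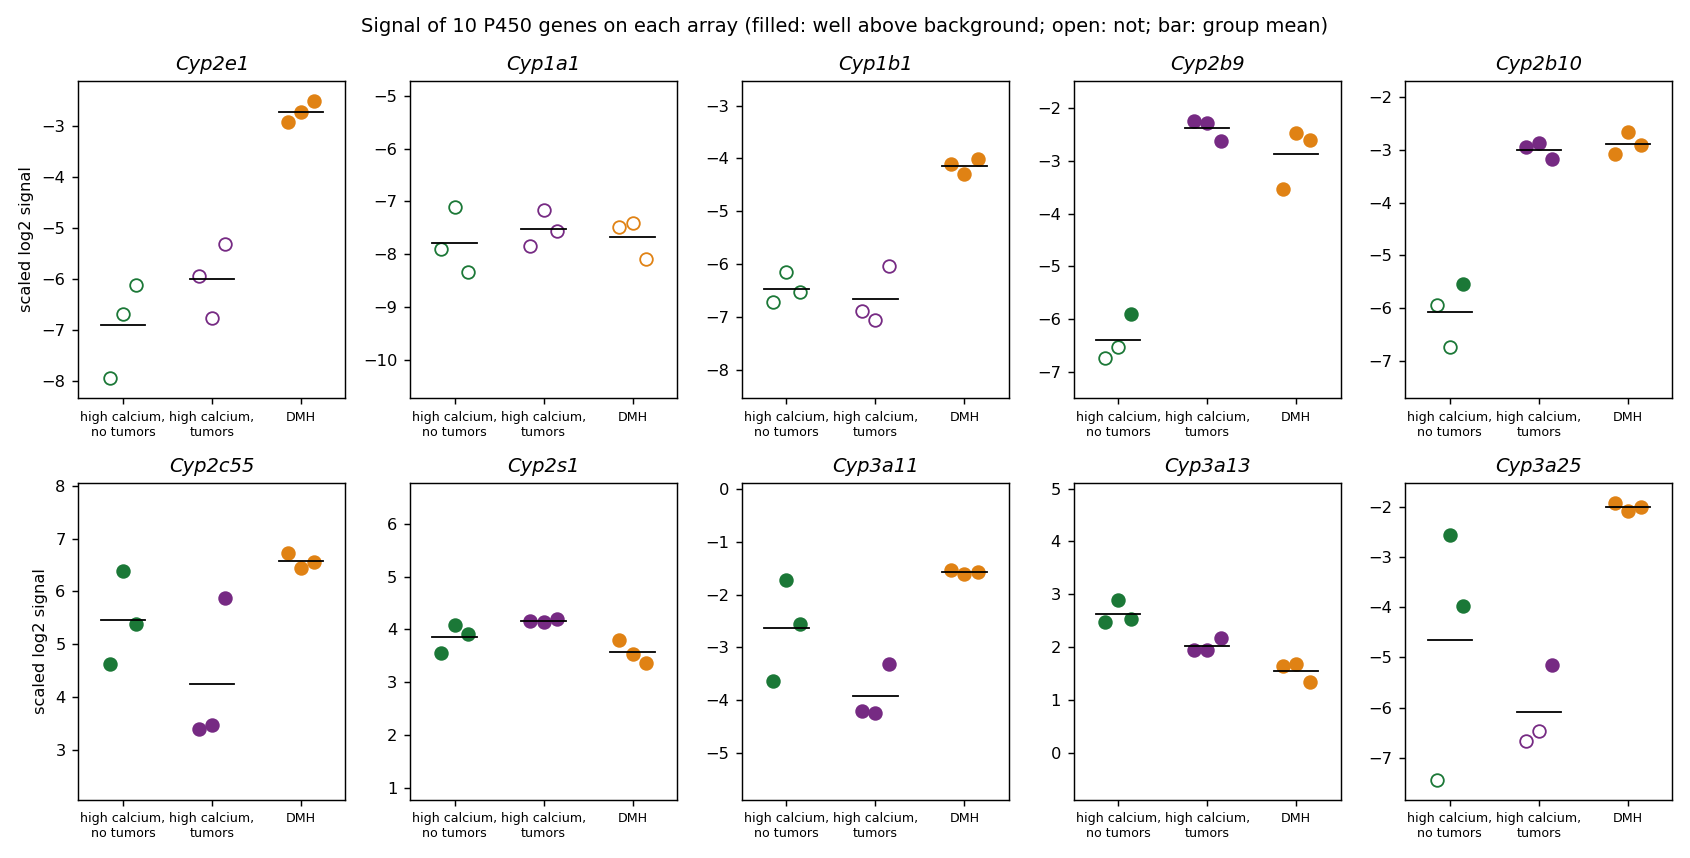
Scaled log2 signal of the 10 P450 genes (vertical axis, 1 panel a gene, each with its own range) on the 3 arrays of the hCA-Notumor, hCA-Tumor and DMH groups. Filled points were well above background and open points were not, and the bar is the group mean. Cyp2e1 and Cyp1b1 were filled on the 3 DMH arrays alone, Cyp2b9 and Cyp2b10 were low on the hCA-Notumor arrays, and Cyp1a1 was open on all 9.

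Cyp2e1, which oxidises ethanol and the DMH product azoxymethane, was lower in both high calcium groups. Its scaled log2 signal was -7.93, -6.67 and -6.12 on the hCA-Notumor arrays, -5.93, -6.76 and -5.31 on the hCA-Tumor arrays, and -2.92, -2.72 and -2.52 on the DMH arrays. All 6 high calcium arrays lay below the 3 DMH arrays, and the probe was well above background on the 3 DMH arrays alone. The processed signal itself was 2.9 to 9.3 in hCA-Notumor, 5.28 to 19.1 in hCA-Tumor and 97.4 to 143 in DMH. The difference from DMH was -4.19 ± 0.51 (SE, limma adjusted p = 0.000824) in hCA-Notumor and -3.28 ± 0.51 (adjusted p = 0.0024) in hCA-Tumor. Since the size of a signal at background is loose, a floored fold is also given. It was 6.96-fold lower in hCA-Notumor and 5.98-fold lower in hCA-Tumor. For the floored fold, each dim array was counted at its own Cyp2e1 signal or at a floor, whichever was larger. The floor was the weakest signal called well above background on that array. The mean over DMH was divided by the result. This is not a strict bound, since a probe over the floor can still fail to be well above background. The dimmer Cyp2b9 probe did so on hCA-Tumor array 1, at -5.38 with a floor of -5.66. Under the slide block the differences were -3.99 (adjusted p = 0.0113) and -3.73 (adjusted p = 0.00589). hCA-Notumor and hCA-Tumor differed by -0.91 ± 0.51 (adjusted p = 0.185), and neither was well above background. Normexp background correction gave -1.08 in hCA-Notumor and -0.87 in hCA-Tumor, smaller than the floored folds, and kept both calls.

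Most adipocyte markers moved with Cyp2e1, which adipocytes also express. Of 12 markers 11 were tested (Lep was not). Against DMH 8 fell in hCA-Notumor and 8 in hCA-Tumor, where 17.3% and 15.9% of all features were called lower. The summed signal of the 11 markers was 15.9 to 24.1 times the 75th percentile in hCA-Notumor, 20.2 to 29.7 in hCA-Tumor and 56.0 to 62.7 in DMH. Adipoq, the adipokine adiponectin, had a scaled log2 signal of -6.34, -4.00 and -4.95 in hCA-Notumor, -4.40, -4.36 and -1.71 in hCA-Tumor and 0.97, 0.87 and 1.05 in DMH. It was thus lower on every high calcium array, with differences of -6.06 ± 0.83 (adjusted p = 0.00137) in hCA-Notumor and -4.45 ± 0.83 (adjusted p = 0.00511) in hCA-Tumor. Plin1, which coats lipid droplets, differed by -3.29 ± 0.42 and -3.22 ± 0.42. Not every marker was lower. Lipe had -0.62, -0.45 and -0.56 in hCA-Notumor, above its -0.65, -0.95 and -0.91 in DMH. Plin4 had 1.18, 1.46 and 1.49 in hCA-Tumor, and 1.42, 0.97 and 0.94 in DMH. Of 8 hepatocyte markers 3 were tested, and their summed signal did not follow Cyp2e1, with 3.12 to 3.98 in hCA-Notumor, 3.66 to 3.85 in hCA-Tumor and 2.78 to 3.35 in DMH. In such bulk tissue fewer cells of a type and less RNA per cell cannot be told apart. The part of the adipocyte markers in the Cyp2e1 result was not tested.

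**Figure D2:**
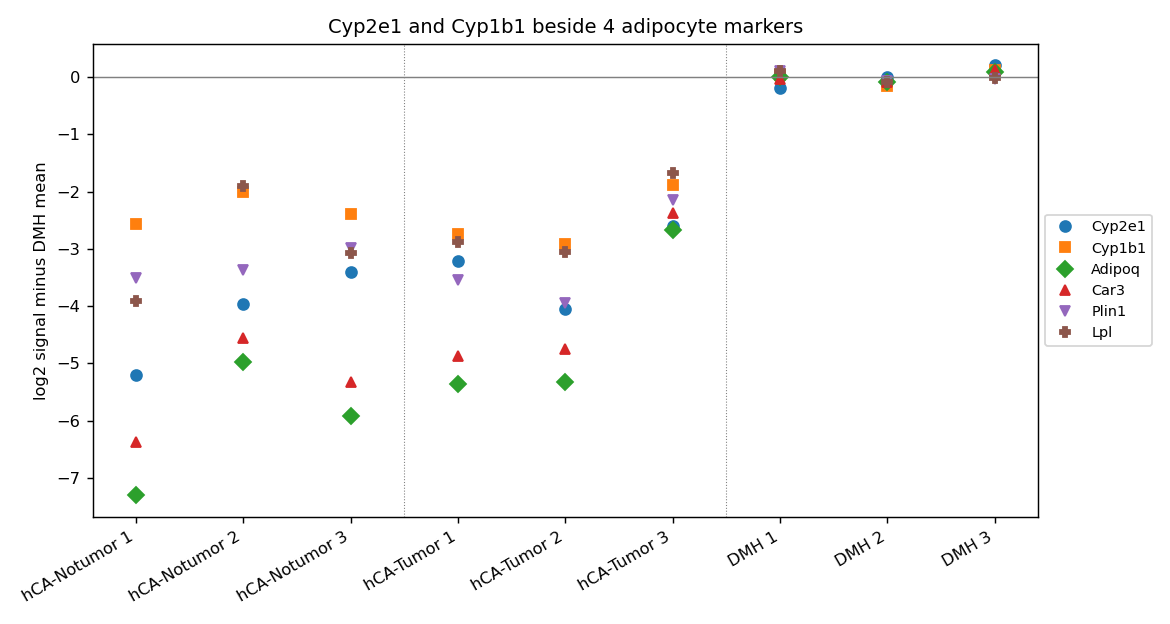
Scaled log2 signal minus the mean of the 3 DMH arrays (vertical axis, log2 units) for Cyp2e1, Cyp1b1 and 4 of the adipocyte markers that fell, on each of the 9 arrays. All 6 genes lay below the DMH arrays on every high calcium array, and the markers Adipoq, Car3 and Lpl were lowest on hCA-Notumor array 1 and highest on hCA-Tumor array 3 among these 6 arrays.

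Of the 2 genes of family 1, which oxidise polycyclic aromatic hydrocarbons, Cyp1b1 was lower in both high calcium groups and Cyp1a1 was not well above background on any array. Cyp1b1 had a scaled log2 signal of -6.71, -6.15 and -6.54 in hCA-Notumor, -6.88, -7.05 and -6.03 in hCA-Tumor, and -4.11, -4.30 and -4.02 in DMH. As with Cyp2e1, the groups did not overlap DMH and only the 3 DMH arrays were well above background. The difference from DMH was -2.32 ± 0.27 (adjusted p = 0.000693) in hCA-Notumor and -2.51 ± 0.27 (adjusted p = 0.000585) in hCA-Tumor. As floored folds, Cyp1b1 was 2.59-fold and 2.23-fold lower. Fitted with the slide as a block the differences were -2.36 and -2.81. Both calls ended under normexp background correction, with -0.30 (adjusted p = 0.419) and -0.27 (adjusted p = 0.486), so the size for this dim probe depends on how background is removed. The difference between hCA-Notumor and hCA-Tumor was 0.19 ± 0.27 (adjusted p = 0.600) with neither well above background. Without hCA-Tumor array 3 it was 0.50 (adjusted p = 0.0415). Cyp1a1 had scaled log2 signals between -8.34 and -7.11 and was well above background on 0 of 9 arrays, so it was not tested and no fold is given.

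Cyp2b9 and Cyp2b10, related drug-metabolising genes on chromosome 7, of which Cyp2b10 is the classic phenobarbital-induced P450 of mouse liver, were low in hCA-Notumor alone among the 3 groups. Cyp2b9 had -6.73, -6.52 and -5.91 in hCA-Notumor, -2.25, -2.28 and -2.63 in hCA-Tumor, and -3.53, -2.48 and -2.60 in DMH (scaled log2 signal). Cyp2b10 had -5.94, -6.73 and -5.54 in hCA-Notumor, -2.95, -2.87 and -3.17 in hCA-Tumor, and -3.08, -2.67 and -2.90 in DMH. For both genes the hCA-Notumor arrays lay below all 6 others, while hCA-Tumor and DMH overlapped. Each probe was well above background on 1 of the 3 hCA-Notumor arrays (array 3) and on all arrays of the other groups, so the differences below include 2 arrays at background and their size is loose. Floored folds were taken with those arrays counted as for Cyp2e1, at the weakest signal called well above background or their own. By these Cyp2b9 in hCA-Notumor was 8.51-fold lower than in hCA-Tumor and 6.08-fold lower than in DMH. For Cyp2b10 these floored folds, which like those of Cyp3a25 were added after the values were seen, were 5.11-fold and 5.53-fold.

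Against hCA-Tumor, hCA-Notumor differed by -4.00 ± 0.32 for Cyp2b9 (adjusted p = 0.0001) and by -3.07 ± 0.28 for Cyp2b10 (adjusted p = 0.000177). Against DMH, hCA-Notumor differed by -3.52 ± 0.32 for Cyp2b9 (adjusted p = 0.000228) and by -3.18 ± 0.28 for Cyp2b10 (adjusted p = 0.000205). hCA-Tumor differed from DMH by 0.49 ± 0.32 for Cyp2b9 (adjusted p = 0.285) and by -0.11 ± 0.28 for Cyp2b10 (adjusted p = 0.800), neither of them a call. Within slide 2, however, the hCA-Tumor difference of Cyp2b9 was 0.28 with an adjusted p of 0.0419. When the slide was a block, the difference of Cyp2b9 from DMH was -2.86 in hCA-Notumor (adjusted p = 0.0023) and that between hCA-Notumor and hCA-Tumor was -3.13 (adjusted p = 0.00551). For Cyp2b10 these were -2.99 (adjusted p = 0.00592) and -2.87 (adjusted p = 0.0171). Under normexp correction the Cyp2b9 difference from DMH shrank to -0.81 and missed the call (adjusted p = 0.0509). That of Cyp2b10 was -0.75 (adjusted p = 0.0336). The differences from hCA-Tumor were then -1.13 and -0.61, and all 4 were smaller than the floored folds.

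Other probes of the Cyp2b genes gave different values. These genes are related and the probe sequences were not used here, so which of them a probe reads cannot be told. The dimmer Cyp2b9 probe was close to background everywhere, with group means of -5.56 ± 0.14, -5.29 ± 0.29 and -5.17 ± 0.37 (SD, n = 3) in hCA-Notumor, hCA-Tumor and DMH, and failed the filter. Its hCA-Notumor and DMH arrays overlapped. The dimmer probe of the related gene Cyp2b13, looked up after the values were seen, had -5.24, -5.53 and -5.14 in hCA-Notumor, -2.07, -2.22 and -2.39 in hCA-Tumor, and -2.23, -1.97 and -2.15 in DMH. It fell by 3.18 ± 0.13 against DMH (adjusted p = 7.41e-06) and by 3.07 ± 0.13 against hCA-Tumor (adjusted p = 8.38e-06), much as Cyp2b10 did. The brighter Cyp2b13 probe went the other way, being 0.73 ± 0.23 higher in hCA-Notumor than in DMH (adjusted p = 0.0401). The Cyp2b19 probe differed by 0.57 ± 0.41 in the same comparison (adjusted p = 0.306).

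**Figure D3:**
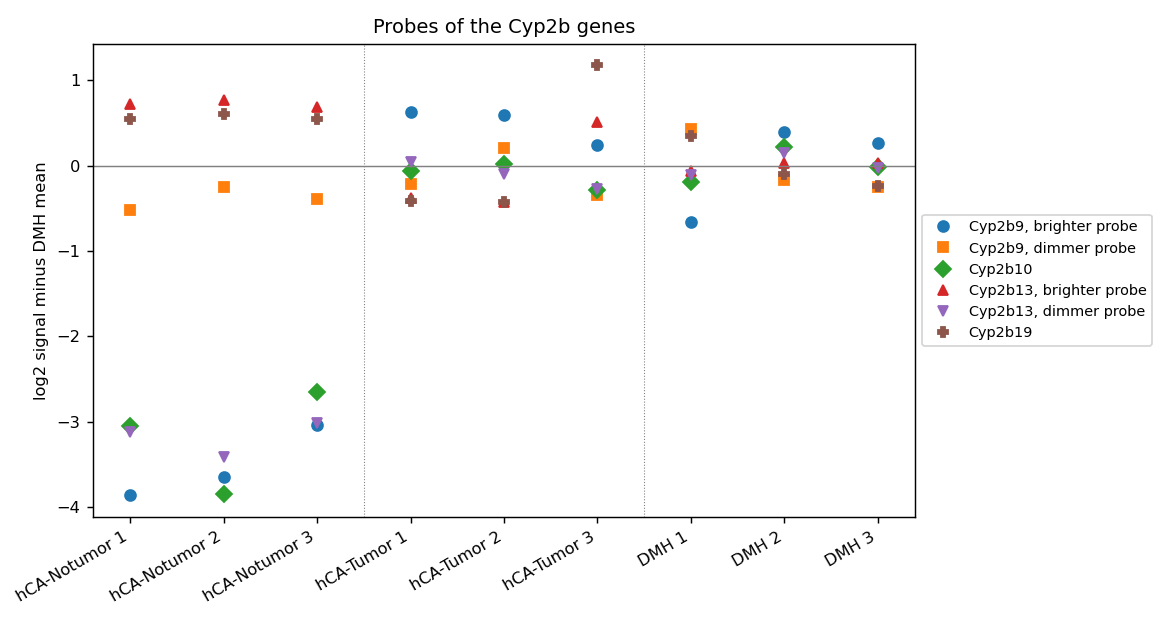
Scaled log2 signal minus the mean of the 3 DMH arrays (vertical axis, log2 units) for each probe of Cyp2b9, Cyp2b10, Cyp2b13 and Cyp2b19 on the 9 arrays. The brighter Cyp2b9 probe, Cyp2b10 and the dimmer Cyp2b13 probe lay far below 0 on the 3 hCA-Notumor arrays and near 0 on the hCA-Tumor arrays, unlike the 3 other probes.

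Cyp2c55, Cyp3a11 and Cyp3a25 were lower in hCA-Tumor than in DMH, and varied together between arrays of the same high calcium group. Cyp2c55, a P450 of the mouse colon that hydroxylates arachidonic acid, had 4.62, 6.39 and 5.38 in hCA-Notumor, 3.40, 3.47 and 5.89 in hCA-Tumor, and 6.72, 6.45 and 6.56 in DMH (scaled log2 signal). Cyp3a11, the main drug-oxidising P450 of mouse liver, had -3.63, -1.73 and -2.56 in hCA-Notumor, -4.20, -4.24 and -3.32 in hCA-Tumor, and -1.53, -1.61 and -1.57 in DMH. Cyp3a25, a relative of Cyp3a11, had -7.44, -2.56 and -3.97 in hCA-Notumor, -6.66, -6.47 and -5.16 in hCA-Tumor, and -1.92, -2.08 and -2.01 in DMH. All 3 genes were highest on array 2 and lowest on array 1 within hCA-Notumor, and highest on array 3 within hCA-Tumor, while the DMH arrays lay within 0.27 of each other. Every high calcium array lay below every DMH array for these genes. Cyp3a25 was well above background on 2 of 3 hCA-Notumor, 1 of 3 hCA-Tumor and 3 of 3 DMH arrays, so its differences include arrays at background. With those arrays raised to the weakest signal called well above background, its floored fold was 9.47-fold lower than DMH in hCA-Tumor. The difference of hCA-Notumor from DMH was then -2.04 on the log2 scale.

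In hCA-Tumor the difference from DMH was -2.33 ± 0.71 for Cyp2c55 (adjusted p = 0.0378), -2.35 ± 0.46 for Cyp3a11 (adjusted p = 0.00651) and -4.09 ± 1.12 for Cyp3a25 (adjusted p = 0.0249). Under the slide block these became -3.07 (adjusted p = 0.00703), -2.63 (adjusted p = 0.0142) and -4.52 (adjusted p = 0.0534), so the Cyp3a25 call ended. The Cyp2c55 call also ended in 6 of the 9 fits that left out 1 array (hCA-Notumor 3, hCA-Tumor 1 or 2, or any DMH array, adjusted p 0.0608 to 0.116), and without hCA-Tumor array 3 its difference was -3.14 (adjusted p = 0.0028). The Cyp3a25 call ended in 5 of those fits (hCA-Tumor 1 or 2, or any DMH array, adjusted p 0.0589 to 0.075). Under normexp its difference was -1.30, smaller than its floored fold, and that of Cyp3a11 was -1.28. The second Cyp3a25 probe, also dim, gave -3.11 ± 0.64 (adjusted p = 0.00732).

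In hCA-Notumor the differences from DMH were -1.11 ± 0.71 for Cyp2c55 (adjusted p = 0.256), -1.07 ± 0.46 for Cyp3a11 (adjusted p = 0.111) and -2.65 ± 1.12 for Cyp3a25 (adjusted p = 0.105), none of them a call. Without hCA-Notumor array 2 both Cyp3a genes passed, with -1.52 for Cyp3a11 (adjusted p = 0.0300) and -3.70 for Cyp3a25 (adjusted p = 0.0356). hCA-Notumor and hCA-Tumor differed by 1.21 ± 0.71 (adjusted p = 0.203), 1.28 ± 0.46 (adjusted p = 0.0541) and 1.44 ± 1.12 (adjusted p = 0.330), and these values depended on single arrays. Without hCA-Tumor array 3 the Cyp2c55 difference was 2.03 (adjusted p = 0.00901) and that of Cyp3a11 1.58 (adjusted p = 0.0276). Without hCA-Notumor array 1 that of Cyp3a11 was 1.78 (adjusted p = 0.00896) and that of Cyp3a25 2.83 (adjusted p = 0.00941).

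The same arrays were high and low in 3 further P450 genes, which were picked for that pattern. Cyp4b1 and Cyp3a44 are among the genes most like Cyp3a11 and Cyp3a25 over the 9 arrays, and Cyp2c66 was chosen after its values were seen, so their pattern is a description. Cyp4b1, which oxidises aromatic amines, had -1.68, 1.90 and 0.03 in hCA-Notumor, -2.69, -2.52 and 0.17 in hCA-Tumor, and 2.00, 1.93 and 1.95 in DMH. Cyp3a44 had -5.22, -0.20 and -1.45 in hCA-Notumor, -3.79, -3.72 and -1.69 in hCA-Tumor, and -0.02, 0.23 and 0.15 in DMH. Cyp2c66 had 0.06, 2.62 and 1.67 in hCA-Notumor, 0.54, 0.58 and 2.70 in hCA-Tumor, and 3.39, 3.09 and 3.10 in DMH. In all of these hCA-Notumor array 2 and hCA-Tumor array 3 came closest to DMH within their groups. In hCA-Tumor Cyp4b1 differed from DMH by -3.64 ± 1.02 (adjusted p = 0.0272). The brighter Cyp3a44 probe missed the call with -3.19 ± 1.22 (adjusted p = 0.0792), whereas the dimmer one passed in a fit of every probe, with -3.36 ± 1.03 (adjusted p = 0.0359). Cyp2c66 also missed, with -1.92 ± 0.76 (adjusted p = 0.0880), and passed under the slide block (-2.54, adjusted p = 0.0412). The summed signal of 8 absorptive colonocyte markers was 425 to 530 times the 75th percentile in hCA-Notumor, 252 to 439 in hCA-Tumor with array 3 the highest, and 377 to 464 in DMH. The adipocyte marker Adipoq was also highest on array 2 in hCA-Notumor and on array 3 in hCA-Tumor. Their part in the variation of these P450 genes was not tested, and hCA-Tumor array 3 was alone on its slide.

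**Figure D4:**
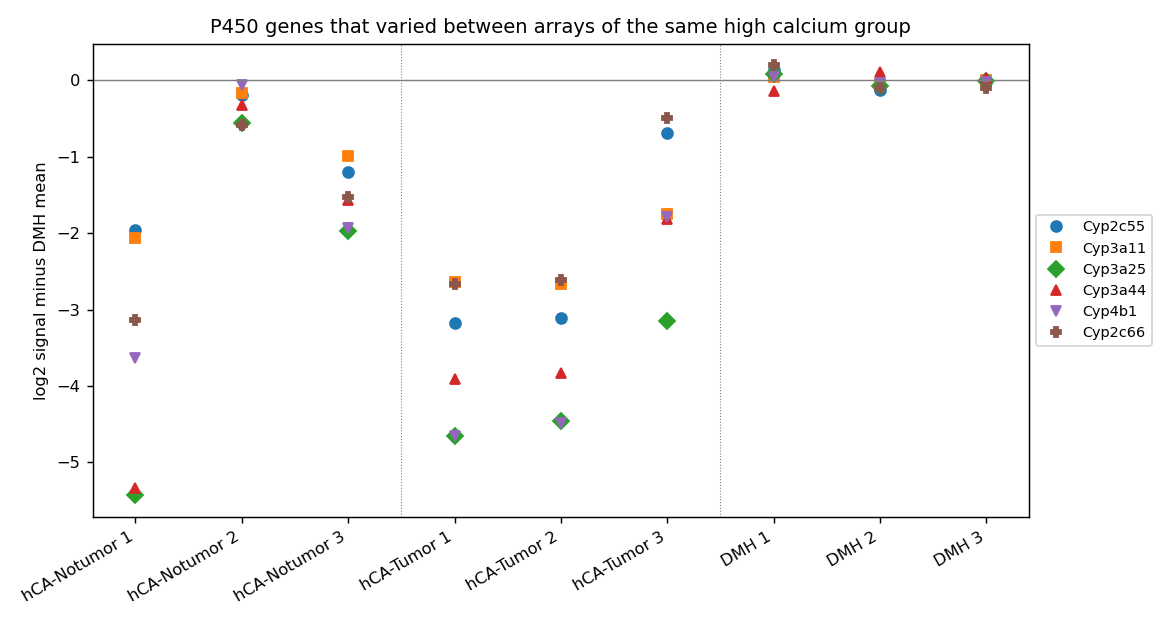
Scaled log2 signal minus the mean of the 3 DMH arrays (vertical axis, log2 units) for Cyp2c55, Cyp3a11, Cyp3a25, Cyp3a44, Cyp4b1 and Cyp2c66 on each of the 9 arrays. Within the high calcium groups, hCA-Notumor array 2 and hCA-Tumor array 3 came closest to 0 for all 6 genes, and the DMH arrays lay close together.

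Cyp3a13 was called higher than DMH in both high calcium groups, and Cyp2s1 in hCA-Tumor. Cyp3a13, an intestinal Cyp3a of the mouse, had 2.48, 2.89 and 2.53 in hCA-Notumor, 1.94, 1.94 and 2.17 in hCA-Tumor, and 1.63, 1.68 and 1.34 in DMH (scaled log2 signal). The arrays of the 3 groups did not overlap, with hCA-Notumor highest and DMH lowest. hCA-Notumor was higher than DMH by 1.08 ± 0.14 (adjusted p = 0.00109, 2.12-fold) and than hCA-Tumor by 0.62 ± 0.14 (adjusted p = 0.00887), and hCA-Tumor was higher than DMH by 0.46 ± 0.14 (adjusted p = 0.0362). With the slide as a block the difference of hCA-Notumor from DMH was 1.00 (adjusted p = 0.0168). Those between hCA-Notumor and hCA-Tumor, 0.57 (adjusted p = 0.149), and between hCA-Tumor and DMH, 0.43 (adjusted p = 0.0911), were then no longer calls. The difference between hCA-Tumor and DMH also missed in 6 of the 9 fits that left out 1 array (adjusted p 0.0527 to 0.108).

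Cyp2s1, a P450 of epithelia outside the liver, had 3.55, 4.07 and 3.92 in hCA-Notumor, 4.16, 4.14 and 4.19 in hCA-Tumor, and 3.80, 3.54 and 3.36 in DMH. The hCA-Tumor arrays lay above all others, and hCA-Notumor overlapped DMH. hCA-Tumor was higher than DMH by 0.60 ± 0.15 (adjusted p = 0.0191, 1.52-fold), and by 0.70 with the slide as a block (adjusted p = 0.022). hCA-Notumor differed from DMH by 0.28 ± 0.15 (adjusted p = 0.187) and from hCA-Tumor by -0.32 ± 0.15 (adjusted p = 0.130). The hCA-Tumor call ended without hCA-Tumor array 1 or 2 or DMH array 2 or 3 (adjusted p 0.0502 to 0.0637).

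**Figure D5:**
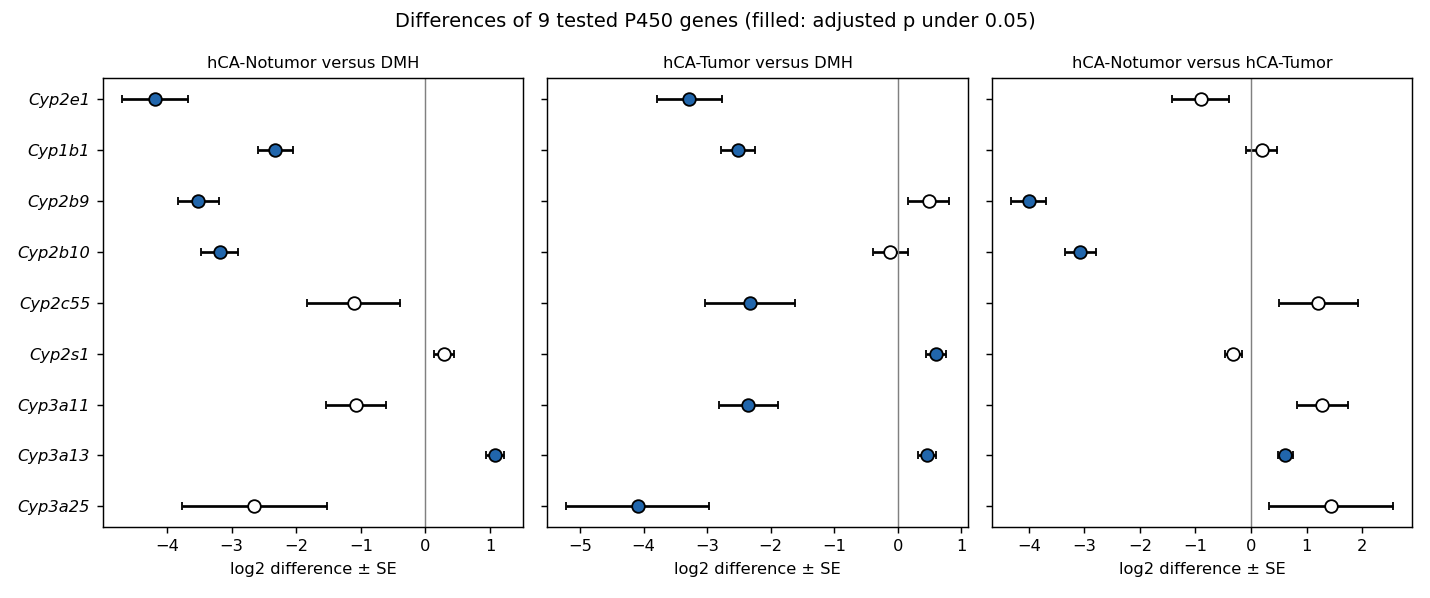
Log2 difference (horizontal axis, with its standard error from limma) of the 9 tested P450 genes in hCA-Notumor versus DMH, hCA-Tumor versus DMH and hCA-Notumor versus hCA-Tumor. Filled points passed at an adjusted p under 0.05. Cyp2b9 and Cyp2b10 were filled at -3.52 and -3.18 in the first panel and at -4.00 and -3.07 in the third, and open near 0 in the second.

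With the 2 high calcium groups averaged and set against DMH, 8 of 9 members were called (2 higher, 6 lower), where 31.6% of all features were called, 17.9% higher and 13.8% lower. With the slide as a block it was also 8 (1 higher, 7 lower), where 38.8% of all features were called, 21.5% higher and 17.4% lower. The lower members include Cyp2e1, Cyp1b1 and Cyp3a25, which passed the filter through the DMH arrays alone. Cyp2e1 was lower by a floored fold of 6.45 (adjusted p = 0.000893 without the floor) and Cyp1b1 by 2.40 (adjusted p = 0.000405). Normexp made both differences smaller than these floored folds, with -0.98 for Cyp2e1 (adjusted p = 0.00193) and -0.29 for Cyp1b1 (adjusted p = 0.405). It so ended the Cyp1b1 call. Cyp3a11 differed by -1.71 ± 0.40 (adjusted p = 0.0157) and Cyp3a25 by -3.37 ± 0.97 (adjusted p = 0.0344), and the Cyp3a25 call ended in 6 of the 9 fits that left out 1 array (adjusted p 0.0534 to 0.103). The Cyp3a11 call ended without DMH array 2 or 3 (adjusted p 0.0520 and 0.0582). Cyp3a13 was higher by 0.77 ± 0.12 (adjusted p = 0.00303). Cyp2s1 was higher by 0.44 ± 0.13 (adjusted p = 0.0404), but not with the slide as a block (adjusted p = 0.0701), nor in 7 of the 9 fits that left out 1 array (adjusted p 0.0615 to 0.158). Cyp2c55 was not a call at -1.72 ± 0.62 (adjusted p = 0.0725), and became one with the slide as a block (-2.16, adjusted p = 0.00958). The values of Cyp2b9 (-1.52 ± 0.28) and Cyp2b10 (-1.65 ± 0.24) average a low and a high group and describe neither.

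Among the 66 other Cyp genes 42 were tested. Against DMH 12 rose and 3 fell in hCA-Notumor, and 10 rose and 3 fell in hCA-Tumor, with medians of 0.34 and 0.07. Blocking on the slide gave 13 higher and 3 lower in hCA-Notumor (median 0.14), and turned hCA-Tumor to 10 higher and 13 lower (median -0.14). Of all features 18.4% were called higher and 17.3% lower in hCA-Notumor, and 21% and 15.9% in hCA-Tumor, without the block. With the block the shares of all features were 14.1% and 12.6% in hCA-Notumor, and 23.9% and 18.6% in hCA-Tumor. Between hCA-Notumor and hCA-Tumor 10 of the 42 genes were higher and 5 lower in hCA-Notumor, where 20.6% and 27% of all features were. Of 6 tested Cyp2d genes, relatives of the drug-metabolising human CYP2D6, 5 rose against DMH in hCA-Notumor and 4 in hCA-Tumor. Cyp2d10 had 3.04, 3.17 and 3.16 in hCA-Notumor, 3.17, 3.05 and 3.03 in hCA-Tumor, and 2.05, 2.24 and 2.00 in DMH, with differences from DMH of 1.03 ± 0.08 (adjusted p = 0.000108) and 0.98 ± 0.08 (adjusted p = 0.000218). Of 6 tested Cyp2c genes other than Cyp2c55, 3 rose in hCA-Notumor and 2 in hCA-Tumor, against DMH. Cyp2c29, a drug-metabolising P450 of mouse liver, had 1.98, 1.85 and 1.99 in hCA-Notumor, at most 1.22 in hCA-Tumor, and 0.87, 0.81 and 0.72 in DMH, and was 1.14 ± 0.06 above DMH in hCA-Notumor (adjusted p = 2.99e-05). Genes of the Cyp2c and Cyp2d clusters are close copies of each other, so their probes may share signal.

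Cyp26b1, which clears retinoic acid, was higher than DMH by 1.20 ± 0.16 in hCA-Notumor (adjusted p = 0.00116) and by 1.50 ± 0.16 in hCA-Tumor (adjusted p = 0.000552). Cyp7b1, an oxysterol hydroxylase, was higher than DMH in hCA-Tumor by 0.98 ± 0.08 (adjusted p = 0.000224), and lower in hCA-Notumor than in hCA-Tumor by a difference of -0.92 ± 0.08 (adjusted p = 0.00014). Cyp20a1, a P450 of unsettled function, fell by 1.06 ± 0.06 against DMH in hCA-Notumor (adjusted p = 2.37e-05). Cyp2f2, which oxidises naphthalene in mouse airways, was 0.86 ± 0.08 higher in hCA-Notumor than in hCA-Tumor (adjusted p = 0.000183).

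Some receptors and targets of xenobiotic sensing were called against DMH, in both directions. Of 14 genes 12 were tested, and against DMH 2 rose and 4 fell in hCA-Notumor while 2 rose and 3 fell in hCA-Tumor. Of all features 18.4% rose and 17.3% fell in hCA-Notumor, and 21% and 15.9% in hCA-Tumor. Under the slide block 1 of the 12 rose and 2 fell in hCA-Notumor, where 14.1% and 12.6% of all features did. In hCA-Tumor 2 rose and 4 fell under the block, where 23.9% and 18.6% of all features did. Such small counts describe single genes and say little about the list as a whole. Nr1i3, the receptor that raises Cyp2b10, had -2.05, -1.90 and -1.92 in hCA-Notumor, -1.39, -0.81 and -1.40 in hCA-Tumor, and -2.47, -2.54 and -3.13 in DMH. It was 0.75 ± 0.22 above DMH in hCA-Notumor (adjusted p = 0.0311), and 1.52 ± 0.22 above DMH in hCA-Tumor (adjusted p = 0.00172). With the slide as a block the hCA-Notumor value was 0.51 and no longer a call (adjusted p = 0.251). Nr1i2, the receptor that raises Cyp3a11, was above DMH by 0.53 ± 0.07 in hCA-Notumor (adjusted p = 0.00139) and by 0.34 ± 0.07 in hCA-Tumor (adjusted p = 0.00966). Cyp3a11 itself was a call below DMH in hCA-Tumor.

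Ahr itself, the receptor of Cyp1 genes, differed from DMH by -0.12 ± 0.04 in hCA-Notumor (adjusted p = 0.0725) and by 0.01 ± 0.04 in hCA-Tumor (adjusted p = 0.869). Ahrr, the repressor that the Ah receptor induces, had -2.56, -2.71 and -2.53 in hCA-Notumor, -3.04, -2.92 and -2.94 in hCA-Tumor, and -2.08, -2.14 and -2.15 in DMH, and was lower than DMH by differences of -0.48 ± 0.06 (adjusted p = 0.00117) and -0.85 ± 0.06 (adjusted p = 0.00018). Nqo1, a quinone reductase and another target of this receptor, differed by -0.74 ± 0.12 (adjusted p = 0.0031) and -0.91 ± 0.12 (adjusted p = 0.00126). Tiparp, a further target of the receptor, was not called, with -0.06 ± 0.06 in hCA-Notumor (adjusted p = 0.494) and -0.11 ± 0.06 in hCA-Tumor (adjusted p = 0.240). Rxra and Arnt were calls below DMH in hCA-Notumor, but not with the slide as a block. Nfe2l2, also in this list, was a call below DMH in hCA-Tumor, with -0.26 (adjusted p = 0.00908). Which receptor or factor lay behind the lower Nqo1 was not tested.

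The electron donors and partners of P450s were also compared with DMH. Of 9 tested genes limma called 0 in hCA-Notumor (2 higher and 2 lower at an unadjusted p under 0.05) and 1 in hCA-Tumor, where 35.7% and 37% of all features were called. The gene called in hCA-Tumor was Por, which had 2.97, 3.14 and 3.07 in hCA-Notumor, 3.77, 3.83 and 3.82 in hCA-Tumor, and 3.17, 3.41 and 3.26 in DMH. The hCA-Tumor arrays lay above all others, by 0.53 ± 0.07 against DMH (adjusted p = 0.00155), and hCA-Notumor differed from hCA-Tumor by -0.75 ± 0.07 (adjusted p = 0.000233).

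Of the enzymes that handle DMH products further downstream, Aldh2 and Gstt1 were higher in hCA-Notumor than in either other group. Of 10 tested genes 5 rose and 2 fell against DMH in hCA-Notumor, 1 rose and 3 fell in hCA-Tumor, and 6 were called higher in hCA-Notumor than in hCA-Tumor, where 20.6% of all features were higher. Against DMH, 18.4% of all features rose and 17.3% fell in hCA-Notumor, and 21% and 15.9% in hCA-Tumor. Under the slide block 6 of the 10 genes rose and 1 fell in hCA-Notumor against DMH, where 14.1% and 12.6% of all features did. In hCA-Tumor 2 rose and 4 fell under the block, where 23.9% and 18.6% of all features did. Of the 6 genes called higher in hCA-Notumor than in hCA-Tumor, 3 stayed so under the block, where 14.4% of all features were higher. The calls that ended were those of Adh1 (0.30, adjusted p = 0.192), Gstm1 (0.30, adjusted p = 0.0990) and Gstp1 (-0.04, adjusted p = 0.747). Adh1, an alcohol dehydrogenase that can oxidise methylazoxymethanol, had 7.16, 7.03 and 7.23 in hCA-Notumor, 6.87, 6.64 and 6.67 in hCA-Tumor, and 6.19, 6.14 and 6.06 in DMH, and was above DMH by 1.01 ± 0.08 (adjusted p = 0.000142) and 0.59 ± 0.08 (adjusted p = 0.00148). Aldh2, the mitochondrial aldehyde dehydrogenase, was higher in hCA-Notumor by 0.79 ± 0.06 against DMH (adjusted p = 7.91e-05) and by 0.77 ± 0.06 against hCA-Tumor (adjusted p = 6.58e-05). Gstt1, a glutathione transferase, was higher in hCA-Notumor by 1.01 ± 0.10 against DMH (adjusted p = 0.000339) and by 0.88 ± 0.10 against hCA-Tumor (adjusted p = 0.000452). Adh5, the formaldehyde-handling alcohol dehydrogenase, was lower than DMH, with -0.52 ± 0.06 in hCA-Notumor (adjusted p = 0.000676) and -0.48 ± 0.06 in hCA-Tumor (adjusted p = 0.00104). Absorptive colonocyte markers moved with those of these enzymes that were higher in hCA-Notumor, and not with Adh5. In hCA-Notumor 6 of 8 markers were above DMH and 6 of 8 above hCA-Tumor, where 18.4% and 20.6% of all features were higher. Under the slide block 4 of 8 were called in each comparison, since Aqp8 and Ceacam20 dropped out, and 14.1% and 14.4% of all features were higher. In hCA-Tumor against DMH 2 of the 8 markers rose and 2 fell without the block. The part of these markers was not tested.

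For each tested member, the named genes whose signals were most like it were found by Pearson's r over the 9 arrays among 14190 genes. The arrays share 3 groups and 3 slides, so these values describe shared patterns of groups and slides. Cyp2e1 was most like Mfap3l (r = 0.99), Eif4e (0.99) and Gatb (0.98), and Cyp1b1 was most like Ermp1 (1.00), Orm2 (0.99) and Adam18 (0.99). Cyp2b9 was most like Mlf1 (1.00), Nup214 (0.99) and Rnf43 (0.99), and Cyp2b10 most like Zfp54 (1.00), Pkhd1 (1.00) and Tspan12 (1.00). Cyp2c55 was most like 4931406C07Rik (0.99), 1810065E05Rik (0.99) and the sulfotransferase Sult1d1 (0.99). Cyp3a11 was most like Cyp4b1 (0.98), the bile acid transporter subunit Slc51b (0.98) and the carboxylesterase Ces2a (0.97), and Cyp3a25 most like Nudt4 (0.98), Cyp3a44 (0.98) and Osr2 (0.97). Cyp2s1 was most like Dedd2 (0.99), Kifc3 (0.97) and Trafd1 (0.97), and Cyp3a13 most like Rgs7bp (0.99), Rwdd2a (0.98) and Mbnl2 (0.97). Between members r was 0.97 for Cyp2b9 with Cyp2b10, 0.96 for Cyp3a11 with Cyp3a25, 0.94 for Cyp2e1 with Cyp1b1, 0.94 for Cyp2c55 with Cyp3a11 and -0.89 for Cyp2b10 with Cyp3a13.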

How the data were processed

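Colonic mucosa RNA of 9 mouse samples was measured on 1-colour Agilent arrays, 1 array a sample. Per the file headers and the submitters' processing notes (Agilent Feature Extraction 10.5.1.1), the deposited intensity values are green-channel processed signals with background subtracted. A table of the whole series from the authors covers 23726 probes in log2 units, and its columns follow log2 processed signals centred on the array median (r of at least 0.9999955, column medians 2.36 to 2.80). It held 4 of the 10 members and served as an alternative.

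The log2 processed signal was scaled by subtracting each array's 75th percentile (572.5 to 819.2 as intensity), leaving out control and outlier spots. The files give no symbols, so accessions were named from RefSeq genes (GRCm38.p6) (25097 probes with 1 symbol, 16077 unnamed). Probes well above background on all 3 arrays of a group were kept (27192 of 41174), and the brightest stood for its gene, giving 21084 features. Tests used limma 3.58.1 (lmFit, eBayes, 9 arrays in 1 fit) under R 4.3.3, with Benjamini-Hochberg adjustment at 0.05 within a comparison. The code was tested on simulated data.

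Alternatives were quantile normalization, normexp correction (on the median spot signal, offset 50), the whole-series table, no filter or one over all 9 arrays, probes averaged by gene, the compared groups alone, the slide or the replicate number as a block, values within a slide, and each array left out. Leaving out hCA-Tumor array 3 with DMH array 1, and testing every probe by itself, were chosen after seeing the data. All 10 members are named. Of other Cyp genes and lists, called genes with no overlap of arrays between groups qualified, at most 6 a list and comparison, largest change first, and those printed are a choice from these. Members and lists were chosen with earlier results of these data known.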

Additional observations from a re-analysis of the deposited data

How the results depend on the processing

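Over the single-gene differences and the alternatives run, 569 values kept their direction and their side of the threshold, 63 lost the call, 19 gained it and 2 reversed. Both reversals were of Cyp1b1 between hCA-Notumor and hCA-Tumor, which is not a call, with -0.022 under normexp and -0.009 without hCA-Tumor replicate 2, within a range of -0.009 to 0.5022 over the arrays left out. Of the members called, normexp left 3 in hCA-Notumor against DMH and 4 for both high calcium groups against DMH. The whole-series table, which holds 4 of the members, gave 2, 2 and 3 in hCA-Notumor, hCA-Tumor and both groups against DMH. Gained there were Cyp3a11 in hCA-Notumor (adjusted p 0.0164) and Cyp2c55 for both groups (adjusted p 0.00704). Lost there were Cyp2s1 and Cyp3a13 in hCA-Tumor (adjusted p 0.1025 and 0.1905) and Cyp2s1 for both groups (adjusted p 0.2595). The filter over all 9 arrays, which left 4 members to test, gave 1, 4 and 3. Between hCA-Notumor and hCA-Tumor, quantile normalization gave 5 in place of 3, adding Cyp2e1 and Cyp3a11 (adjusted p 0.0454 and 0.0482), and 5 were also called on leaving out hCA-Tumor array 3 with DMH array 1, a setting chosen after seeing the data. Leaving out 1 array gave 5 to 7 called in hCA-Notumor and 3 to 7 in hCA-Tumor against DMH, 3 to 6 between the high calcium groups and 5 to 8 for both against DMH. The cause of these moves was not tested, beyond the smaller number of members in the whole-series table and under the filter over all arrays.

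Same-numbered arrays of different groups did not deviate together (r -0.57 to 0.22 over 9 pairs, against -0.46 to 0.57 over 18 other pairs). No pairing by number was seen, but the numbers are mixed with the slides, so these values cannot exclude one. With the replicate block 5, 4, 3 and 7 members were called in hCA-Notumor, in hCA-Tumor, between the high calcium groups and in both, and Cyp2c55, Cyp2s1 and Cyp3a13 were those lost in hCA-Tumor against DMH (adjusted p 0.0609, 0.0541 and 0.0665). Signal over background limits Cyp2e1, Cyp1b1, Cyp2b9, Cyp2b10 and Cyp3a25 most, since their low groups were at or near background.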
